A study of Rattus norvegicus with 4 samples.

Results

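Insulin signalling and glucose use in fracture callus are described here through 8 genes chosen by Ensembl ID, out of 20174 genes on the array. The secreted growth factor is Igf1 (ENSRNOG00000004517). The receptors are Insr (ENSRNOG00000029986) and Igf1r (ENSRNOG00000014187), and their adaptor is Irs1 (ENSRNOG00000014597). The glucose transporters are Slc2a1 (ENSRNOG00000007284) and Slc2a4 (ENSRNOG00000017226). The enzymes are the hexokinase Hk2 (ENSRNOG00000006116) and the pyruvate dehydrogenase kinase Pdk4 (ENSRNOG00000009565). All 8 IDs had 1 spot each on every array and a row in the deposited value table, and no spot of theirs carried a bad flag. One value was null, that of Irs1 in day 11 control callus. The symbols come with the choice of the 8 IDs, since the array files give IDs alone.

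Callus, the repair tissue that bridges a broken bone, was taken from male Sprague–Dawley rats of 12 weeks. There were 4 groups: diabetic callus of day 11, control callus of day 11, diabetic callus of day 5 and control callus of day 5 after fracture. Diabetic rats had received streptozotocin intravenously at 40 mg/kg and had blood glucose over 300 mg/dl, while control rats had received sodium chloride and had normal glucose. All animals carried a closed transverse fracture of the right femoral shaft with a wire in the canal. Callus of 5 animals was pooled for each of the 4 arrays, so differences between animals cannot be seen and no comparison of 2 arrays has a replicate check. Streptozotocin destroys the insulin-producing beta cells, so these rats model lack of insulin together with high glucose. No table used here pairs other IDs with symbols. The tissue was therefore not checked against marker genes of callus, muscle or fat, and other genes of the pathway were not counted.

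Insulin and insulin-like growth factor 1 bind related receptor tyrosine kinases, which act through adaptor proteins such as Irs1 on growth and on glucose uptake. In muscle and fat, insulin moves the transporter encoded by Slc2a4 (GLUT4) to the cell surface, while the one encoded by Slc2a1 (GLUT1) carries basal uptake in many cell types. Inside the cell, hexokinase 2 traps glucose as glucose 6-phosphate, and pyruvate dehydrogenase kinase 4 restrains the entry of pyruvate into mitochondrial oxidation. Insulin-like growth factor 1 is also made by bone and cartilage cells and promotes bone formation. In callus, a mixture of cell types, fewer cells of a type and less RNA per cell cannot be told apart.

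Levels are given as the authors' scaled intensity from the deposited table. These values are spot medians from which the mean of the blank spots was taken off, multiplied by a factor that brings the median of an array's listed genes to 25. Differences are given on 2 log2 scales. The first is taken from these scaled intensities. The second uses background-corrected, quantile normalized intensity plus 50, on which dim genes differ less, and it decides which genes were at least 2-fold apart. A spot error stands beside some differences. It joins the SD of the blank spots with the coefficient of variation of 24 repeats of a positive control probe (8.01% to 11.9% per array). A second positive control probe, which the spot error leaves out, varied more, by 17.0% to 28.9% per array. As the SD of its log2 signal, that probe varied by 1.28 in diabetic and 1.01 in control callus on day 11. On day 5 it varied by 0.37 in diabetic and 0.64 in control callus, against 0.12 to 0.17 per array for the first probe. These day 11 SDs are not small beside the day 11 differences of Igf1 (-1.89) and Slc2a1 (1.78) in scaled intensity. Statements on 2 spot errors therefore rest on the less variable probe and would be fewer with the other, above all on day 11. The spot error covers differences between spots of 1 array, not differences between animals, RNA preparations or arrays.

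With the blank-spot mean as background, diabetic callus had less Igf1 signal and more Slc2a1 signal than control callus on day 11. On day 5 it had more Slc2a1 and less Pdk4. By smaller amounts, Pdk4 was also lower in diabetic callus on day 11, and Slc2a4 and Hk2 were lower on both days. The Hk2 difference of day 11 was under 2 spot errors. Insr and Irs1 lay close to background, and Igf1r differed little between any of the arrays. No gene among the 8 passed a test corrected over all genes.

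On day 11, 2 of the 8 genes were at least 2-fold apart, against 4.27% of the 16732 genes compared, and these were Slc2a1 (higher in diabetic callus) and Igf1 (lower). By direction, 2.16% of all genes were higher and 2.1% lower in diabetic callus past that size. On day 5, 2 of the 8 genes were again at least 2-fold apart, against 1.51% of 17030 genes, namely Slc2a1 (higher) and Pdk4 (lower). By direction the shares of all genes were 0.534% higher and 0.975% lower. The authors' deposited table has no offset, and there 2 of the 7 genes listed on both arrays were at least 2-fold apart on day 11, against 15.2% of all listed genes. On day 5 there were 4 of 8, Slc2a4 and Hk2 (both lower) in addition, against 8.38%. Bright genes passed this size more often. With all genes ranked by mean signal and split into 4 bins, 10.2% of the brightest bin, which holds Igf1 and Slc2a1, were at least 2-fold apart on day 11 and 4.24% on day 5. In the next bin, which holds Igf1r, Slc2a4, Hk2 and Pdk4, the shares were 5.16% and 1.49%. In the dimmest bin, which holds Insr, 0 of 3487 genes were past that size on day 11 and 0 of 3788 on day 5. These 0 counts follow from the offset, which keeps genes this dim under 2-fold, and are no result about Insr. The median log2 difference of the 8 genes was -0.11 on day 11 and -0.14 on day 5, against 0.00080 and 0.0072 for all genes. In log2 scaled intensity it was -0.33 on day 11, over the 7 genes listed on both arrays, and -0.42 on day 5, over all 8, against 0.049 and 0.026 for all listed genes.

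**Figure D1:**
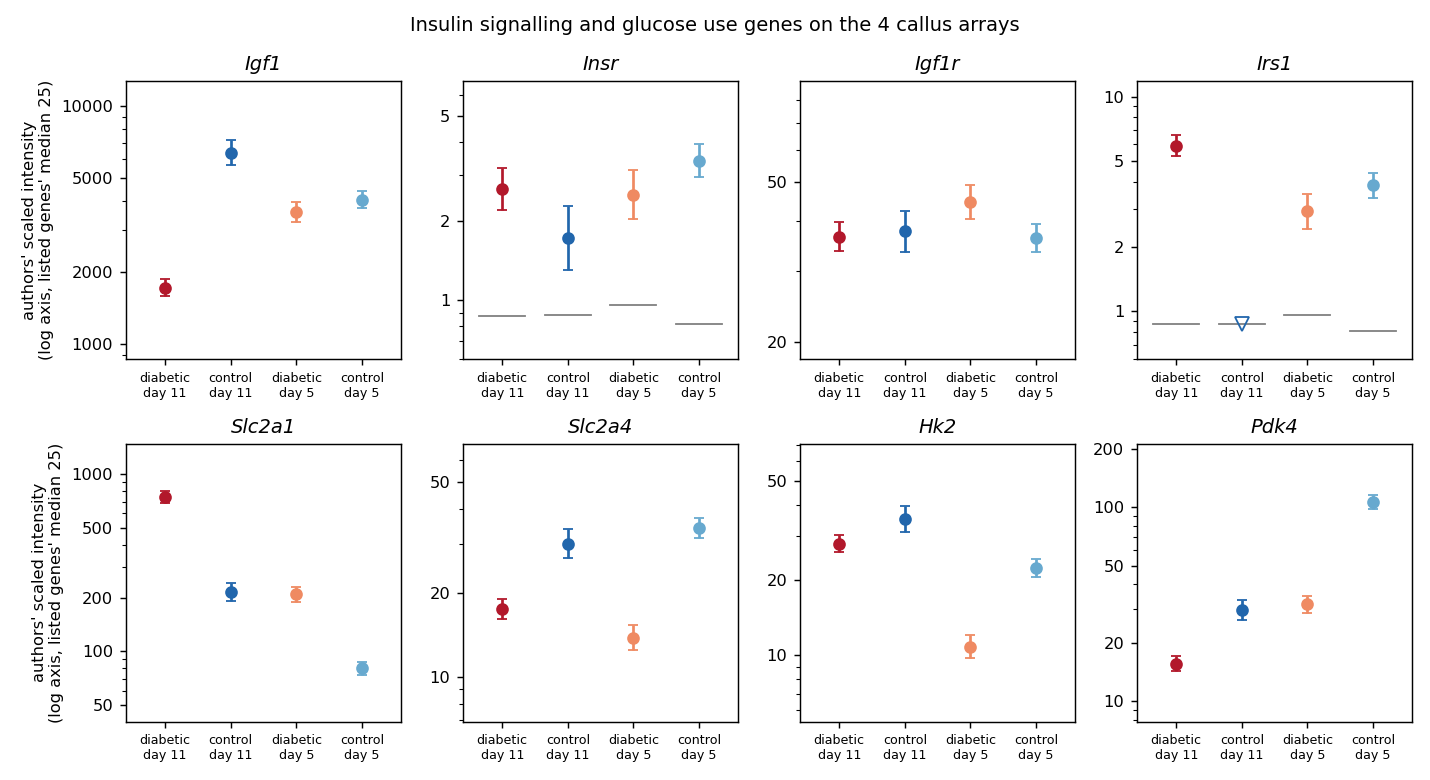
Authors' scaled intensity of each gene (log axis, own range per panel) on the arrays of diabetic and control callus of day 11 and of day 5. Points are single arrays, bars are plus or minus 1 spot error, grey lines are the blank-spot limit where it falls within the panel, and the open triangle marks the null of Irs1. Igf1 spans 1723 to 6380 and Slc2a1 spans 80.0 to 743, and their lowest and highest arrays differ.

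Igf1 encodes the secreted ligand insulin-like growth factor 1. The scaled intensity of Igf1 was 1723 in diabetic and 6380 in control callus on day 11, and 3577 in diabetic and 4041 in control callus on day 5. Diabetic callus of day 11 had the lowest level of the 4 arrays and control callus of day 11 the highest, with both day 5 arrays in between. On day 11 Igf1 was 3.70-fold lower in diabetic callus, a log2 difference of -1.89 with a spot error of 0.21. In scaled intensity 4.76% of listed genes differed by at least as much. With the offset of 50 the log2 difference was -2.04, and 0.974% of genes differed by at least as much. On day 5 the log2 difference in scaled intensity was -0.18 with a spot error of 0.18, so the 2 day 5 arrays did not differ by more than the error of the spots. With the local background of each spot the Igf1 difference was -0.58 on day 11, under 2-fold, and 0.56 on day 5.

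The receptor gene Insr gave little signal. It had a scaled intensity of 2.65 in diabetic and 1.73 in control callus on day 11, and 2.52 in diabetic and 3.39 in control callus on day 5. All 4 values were above the blank-spot limit, but only that of day 5 control callus was above the limit set on negative control spots. The diabetic minus control log2 difference in scaled intensity was 0.62 on day 11 (spot error 0.48) and -0.43 on day 5 (spot error 0.37). Both are under 2 spot errors, so a diabetes difference in Insr was not detectable at this signal.

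Igf1r encodes the receptor for insulin-like growth factor 1 and was well above background. Scaled intensities were 36.5 in diabetic and 37.7 in control callus on day 11, and 44.6 in diabetic and 36.2 in control callus on day 5. The 4 values span 0.30 on the log2 scale. The diabetic minus control log2 difference was -0.04 on day 11 (spot error 0.21) and 0.30 on day 5 (spot error 0.18). The receptor of the Igf1 ligand thus showed no difference beyond 2 spot errors on day 11, the day on which the ligand differed 3.70-fold.

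Irs1 encodes insulin receptor substrate 1, an adaptor of both receptors. It was listed at 5.91 in diabetic callus of day 11 and null in control callus of day 11, and 2.92 in diabetic and 3.86 in control callus on day 5. The control spot of day 11 was 1.01 blank-spot SD above the blank mean and was not well above background. Irs1 was at least 1.16-fold higher in diabetic than in control callus on day 11 on the intensity + 50 scale, with the dim array set to its lowest signal above the limit. That scale shrinks differences of dim genes. With the blank-spot mean subtracted, no offset and the dim spot raised to the limit, Irs1 was 6.79-fold higher (log2 difference 2.76). There 2.15% of genes differed by at least as much. The size of the Irs1 difference thus depends on the scale. On day 5 the log2 difference was -0.40 in scaled intensity with a spot error of 0.34.

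Slc2a1 was at least 2-fold apart in all 4 comparisons of diabetic with control callus and of day 11 with day 5, alone among the 8 genes. With the local background of each spot this held for 3 of them, and the day difference in control callus was -0.0049. Slc2a1 reached a scaled intensity of 743 in diabetic and 217 in control callus on day 11, and 210 in diabetic and 80.0 in control callus on day 5. Diabetic callus was above control callus on each day, and day 11 was above day 5 in each condition. Control callus of day 11 and diabetic callus of day 5 had nearly the same level. In scaled intensity Slc2a1 was 3.43-fold higher in diabetic callus on day 11 (log2 difference 1.78, spot error 0.21) and 2.62-fold higher on day 5 (log2 difference 1.39, spot error 0.18). For the day 11 difference in scaled intensity, 5.40% of listed genes differed by at least as much. Differences on the intensity + 50 scale were 1.60 on day 11 and 1.06 for day 5, and 1.70% and 1.34% of genes differed by at least as much.

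Slc2a4 encodes the insulin-regulated transporter of muscle and fat. Its scaled intensity was 17.5 in diabetic and 30.0 in control callus on day 11, and 13.8 in diabetic and 34.2 in control callus on day 5. Both diabetic arrays were below both control arrays. The log2 difference in scaled intensity was -0.77 on day 11 (spot error 0.21) and -1.31 on day 5 (spot error 0.19), or 2.48-fold lower on day 5. On the intensity + 50 scale it was -0.35 on day 11 and -0.50 on day 5, under 2-fold on both days. With the local background of each spot it was -0.0013 on day 11 and 0.0056 on day 5, so the lower level of Slc2a4 in diabetic callus depends on the background used. Whether muscle or fat in the samples moves with the Slc2a4 difference was not tested.

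Hk2 encodes the hexokinase of insulin-responsive tissues. Hk2 had a scaled intensity of 28.0 in diabetic and 35.2 in control callus on day 11, and 10.8 in diabetic and 22.3 in control callus on day 5. Diabetic callus was below control callus on each day. The log2 difference in scaled intensity was -0.33 on day 11 with a spot error of 0.21, and -1.04 on day 5 with a spot error of 0.20. Only the day 5 difference was beyond 2 spot errors. They were -0.18 and -0.31 on the intensity + 50 scale.

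Pdk4 encodes a kinase that switches off the pyruvate dehydrogenase complex, and its transcript is known to rise in muscle and heart in fasting and diabetes. Its scaled intensity was 15.6 in diabetic and 29.4 in control callus on day 11, and 31.5 in diabetic and 107 in control callus on day 5. Diabetic callus had the lower level on each day, and control callus of day 5 stood above the other 3 arrays. In scaled intensity Pdk4 was 1.88-fold lower in diabetic callus on day 11 (log2 difference -0.91, spot error 0.21) and 3.39-fold lower on day 5 (log2 difference -1.76, spot error 0.18). With the offset the differences were -0.40 for day 11 and -1.12 for day 5, and 16.8% and 1.14% of genes differed by at least as much. With the local background of each spot Pdk4 was -0.19 on day 11 and -0.34 on day 5, under 2-fold on both.

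**Figure D2:**
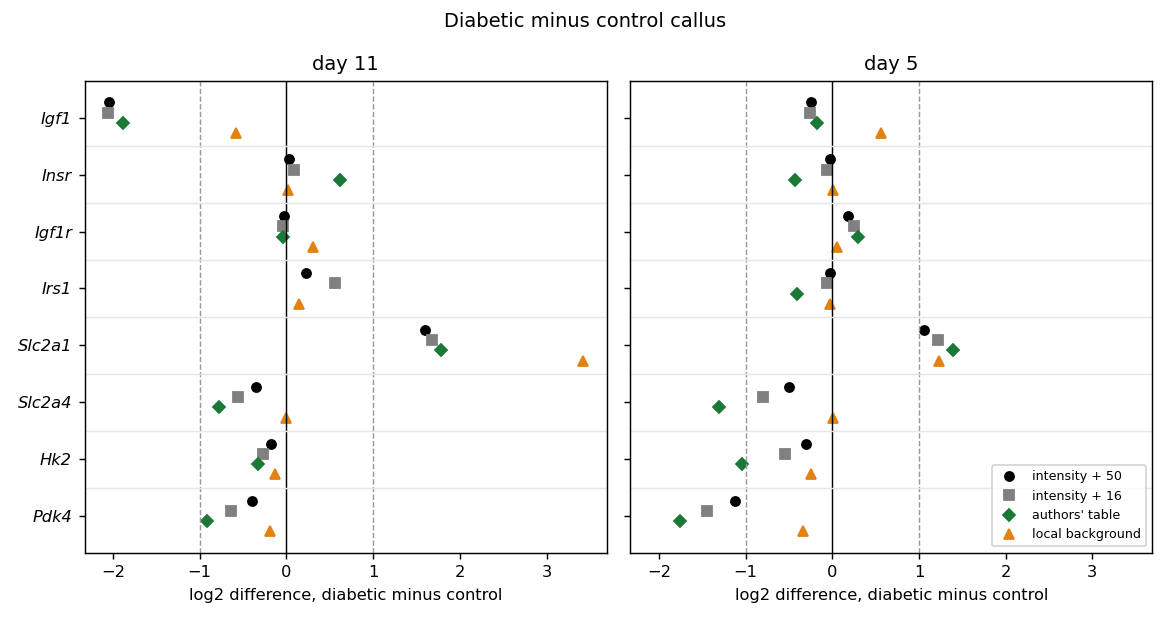
Diabetic minus control log2 difference of each gene on day 11 and on day 5, with 4 ways of forming the values as symbols and 2-fold as dashed lines. Slc2a1 lies at 1.06 or above in both panels at all 4 settings, while the Igf1 difference of day 11 is -2.04 on the intensity + 50 scale and -0.58 when the local background is used.

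Slc2a1 and Pdk4 differed in opposite directions in diabetic callus on both days, so the 250 bases before the start of each gene are shown, from RefSeq on build GRCr8. Slc2a1 lies on chromosome 5 with its window at chr5:138002272-138002521 on the plus strand, and Pdk4 on chromosome 4 with its window at chr4:34568330-34568579 on the minus strand. Each is written 5′ to 3′ along its gene, and capitals mark matches, on either strand, to 5 motifs. These are the GC box GGGCGG, the core of the hypoxia response element ACGTG, the promoter box CCAAT, the TATA box TATAAA and the forkhead factor motif GTAAACA, with no overlap between matches in these windows.
Slc2a1: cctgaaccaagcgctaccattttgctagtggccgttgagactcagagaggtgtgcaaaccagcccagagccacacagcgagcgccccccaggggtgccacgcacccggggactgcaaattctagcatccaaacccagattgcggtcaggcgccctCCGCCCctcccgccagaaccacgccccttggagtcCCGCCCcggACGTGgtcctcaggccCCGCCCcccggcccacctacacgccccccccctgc
Pdk4: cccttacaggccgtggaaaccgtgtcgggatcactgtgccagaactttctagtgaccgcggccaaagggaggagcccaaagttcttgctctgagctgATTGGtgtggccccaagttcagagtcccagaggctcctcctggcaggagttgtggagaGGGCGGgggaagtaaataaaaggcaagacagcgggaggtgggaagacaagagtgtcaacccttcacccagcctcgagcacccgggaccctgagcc
The Slc2a1 window held 3 matches to GGGCGG, at 95, 60 and 35 bases before the start, and 1 to ACGTG at 51 bases. The Pdk4 window held 1 match to CCAAT at 153 bases and 1 to GGGCGG at 95 bases. Of 33469 RefSeq windows of the same length, 30.5% held the GC box, 16.6% the hypoxia core, 34% the CCAAT box, 12.9% the TATA box and 3.21% the forkhead motif. Of the 8 genes 7 had a window in the table, of which 4 held the GC box, 2 the hypoxia core, 1 the CCAAT box, 1 the forkhead motif and 0 the TATA box. These matches describe the letters of the windows and were not measured as binding sites.

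The diabetes difference averaged over both days was fitted in limma over 17661 genes on all 4 arrays, with day as a second term. This fit has 1 residual degree of freedom per gene, and its error is the change of the diabetes difference between the days. Of the 8 genes 0 had a Benjamini-Hochberg adjusted p under 0.05 in limma, as had 0% of all genes. At an unadjusted p under 0.05 there were 3 of the 8 genes in limma, Slc2a1, Slc2a4 and Hk2, beside 15.1% of all genes. For Slc2a1 the averaged log2 difference was 1.33 (SE 0.18), with a limma adjusted p of 0.275 (0.179 to 0.832 over 10 other settings). For Slc2a4 it was -0.43 (SE 0.062), also with a limma adjusted p of 0.275 (0.210 to 1 over the other settings). For Igf1 it was -1.15 with an SE of 0.58, and the limma adjusted p was 0.496 (0.371 to 1 over the other settings). The SE of Igf1 reflects the unequal differences of the 2 days.

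**Figure D3:**
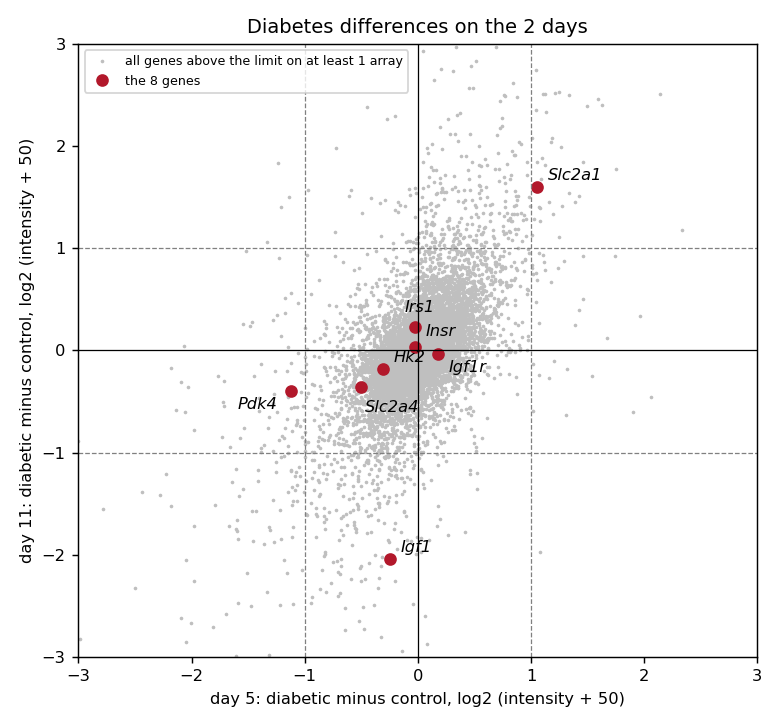
Diabetic minus control log2 difference (intensity + 50) on day 11 against that on day 5 for the 8 genes (red) and for all 17661 genes above the limit on at least 1 array (grey, of which 69 lie outside the axes at 3). Slc2a1 is past 2-fold on both days, Igf1 on day 11 and Pdk4 on day 5.

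Day 11 callus was next set against day 5 callus of the same condition. With the blank-spot mean as background, Slc2a1 was higher on day 11 in both conditions, Hk2 was higher by less, and Pdk4 was lower on day 11 in both. With the local background of each spot, the Slc2a1 log2 difference was 2.18 in diabetic callus but -0.0049 in control callus, and in control callus 0 of the 8 genes then differed 2-fold or more by day, against 3.28% of all genes. Igf1 was lower on day 11 in diabetic and higher in control callus. In diabetic callus 1 of the 8 genes, Slc2a1, was at least 2-fold apart between the days, against 1.35% of 16803 genes, with 1.04% of all genes higher on day 11. By the scaled intensities of the authors' deposited table, Igf1, Irs1, Slc2a1, Hk2 and Pdk4 (5 of the 8) were past that size in diabetic callus, against 7.07% of listed genes. In control callus there were 2 of the 8, Slc2a1 (higher on day 11) and Pdk4 (lower), against 1.68% of 16893 genes, with 0.965% of all genes higher and 0.71% lower. The authors' deposited table gave the same number, 2 of 7 listed on both arrays, against 8.2%.

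Slc2a1 was 3.55-fold higher on day 11 than on day 5 in diabetic callus in scaled intensity (log2 difference 1.83, spot error 0.18). In control callus it was 2.71-fold higher on day 11 (log2 difference 1.44, spot error 0.21). On the intensity + 50 scale the log2 differences were 1.80 in diabetic and 1.26 in control callus, and 0.321% and 0.959% of genes differed by at least as much. Hk2 was 2.59-fold higher on day 11 in diabetic callus and 1.58-fold higher in control callus in scaled intensity. Its log2 differences on the intensity + 50 scale were 0.50 in diabetic and 0.38 in control callus, both under 2-fold.

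Pdk4 was 2.02-fold lower on day 11 than on day 5 in diabetic callus and 3.64-fold lower in control callus in scaled intensity. Its log2 differences on the intensity + 50 scale were -0.41 in diabetic and -1.13 in control callus. Igf1 was 2.08-fold lower on day 11 in diabetic callus (log2 difference -1.05, spot error 0.18), against 1.58-fold higher in control callus (log2 difference 0.66, spot error 0.21). These differences were -0.95 and 0.84 on the intensity + 50 scale, both under 2-fold. Slc2a4 differed between the days by 0.34 in diabetic and -0.19 in control callus in log2 scaled intensity, under 2 spot errors in both.

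Insr differed between the days by 0.07 in diabetic callus (spot error 0.41) and -0.97 in control callus (spot error 0.45) in log2 scaled intensity. Irs1 was 2.02-fold higher on day 11 in diabetic callus (log2 difference 1.02, spot error 0.32), at signals where the intensity + 50 scale gave 0.12. In control callus, where its day 11 spot was not well above background, Irs1 was at least 1.08-fold lower on day 11 on the intensity + 50 scale. With the blank-spot mean subtracted, no offset and the dim spot raised to the limit, its log2 difference there was -2.03. Igf1r differed between the days by -0.29 in diabetic and 0.06 in control callus, under 2 spot errors in both. In scaled intensity the median of all genes was itself -0.11 in diabetic and -0.14 in control callus between the days, against -0.011 and -0.0056 in the quantile normalized values.

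**Figure D4:**
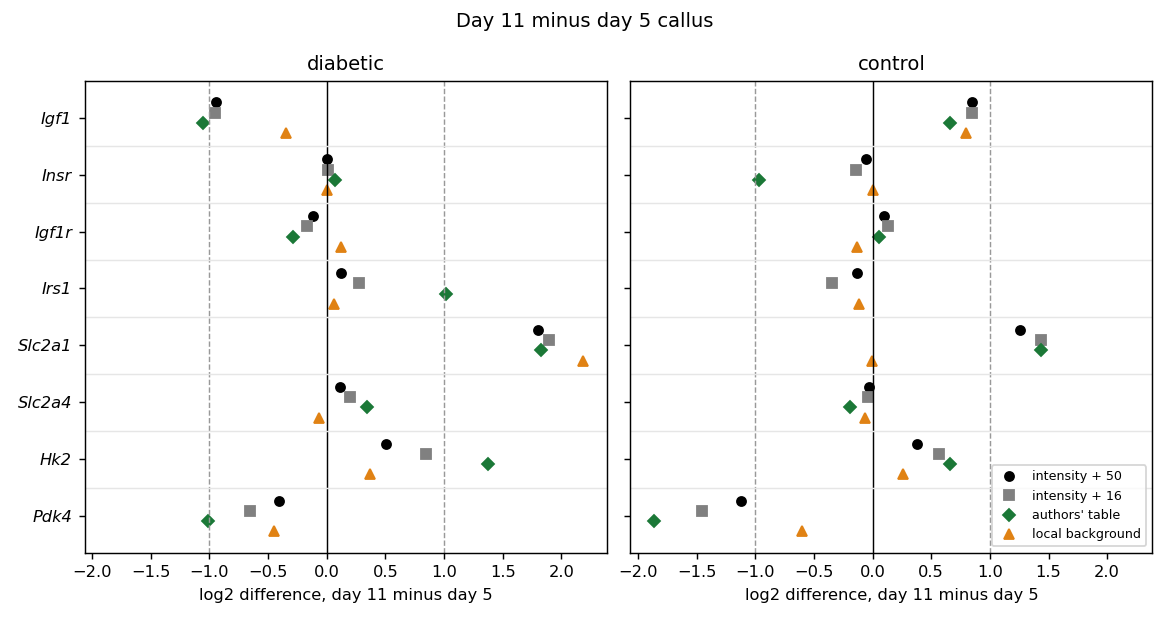
Day 11 minus day 5 log2 difference of each gene in diabetic and in control callus, with 4 ways of forming the values as symbols and 2-fold as dashed lines. Igf1 lies below 0 in diabetic and above 0 in control callus at all 4 settings, and Slc2a1 in control callus drops to -0.0049 with the local background.

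In limma the day difference averaged over conditions had an adjusted p under 0.05 for 0 of the 8 genes and 0% of all genes. At an unadjusted p under 0.05 there were 2 of the 8 in limma, Slc2a1 and Hk2, beside 9.13% of all genes. The averaged log2 day difference was 1.53 (SE 0.18) for Slc2a1, with a limma adjusted p of 0.525 (0.357 to 1 over 10 other settings). For Hk2 it was 0.44 (SE 0.058), with the same limma adjusted p (0.357 to 0.940 over those settings). The change of the diabetes difference from day 5 to day 11 was -1.79 for Igf1, 0.72 for Pdk4 and 0.54 for Slc2a1 on the intensity + 50 scale. These sizes and their order depend on the background, since with the local background the change was -1.14 for Igf1 and 2.19 for Slc2a1. For Irs1, whose day 11 control spot was near background, the change was 0.26. It became 3.02 with the blank-spot mean subtracted and no offset. With the day difference as its error, limma gave Igf1 an SE of 0.11 for the change of its diabetes difference. The limma adjusted p was 0.9998 (0.782 to 0.99999 over 10 other settings). That SE is small because the Igf1 day differences, -0.95 in diabetic and 0.84 in control callus, nearly cancel in the error (-0.052 on average). The SE was 2.06 for Slc2a1 and 1.04 for Pdk4, whose day differences had the same sign in both conditions. Of the 8 genes 0 passed for the change, 1 (Igf1) had an unadjusted p under 0.05 in limma, and 2.73% of all genes did. As this error holds real differences between days, the unadjusted p cannot set Igf1 apart from the other genes.

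The patterns of the 8 genes over the 4 arrays were compared by the distance between their centred log2 values (intensity + 50). Insr, Igf1r and Irs1 formed the 3 nearest pairs, at distances of 0.14 to 0.24, and their values spanned 0.056, 0.18 and 0.23. Closeness among these 3 therefore reflects small spans on this scale, on which dim genes differ less. In scaled intensity Insr spanned 0.97 and Igf1r 0.30, while the span of Irs1 is not known because of its null. Slc2a4 and Hk2 came next at 0.44. Slc2a1 was farthest from Igf1, at 3.16, and from Pdk4, at 3.10. In scaled intensity the nearest gene to Slc2a4 was likewise Hk2, and that of Igf1, Igf1r, Hk2 and Pdk4 was also unchanged. The nearest gene to Slc2a1 became Igf1r in place of Hk2, and that to Insr became Igf1r in place of Irs1. Irs1 was left out there because of its null.

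The local background recorded beside each spot bears on several of these values. Among genes with a net signal of at least 100 it had a median of 64.1% to 74.3% of the spot median per array, and over all genes its log value correlated with that of the spot at an r of 0.981 to 0.990 per array. For Slc2a1 it was 41.2% of the spot median in diabetic and 94.2% in control callus on day 11, and 54.2% in diabetic and 85.1% in control callus on day 5. For Igf1 it was 82.7% in diabetic and 92.9% in control callus on day 11, and 84.0% in diabetic and 93.0% in control callus on day 5. When this local value was used as background, the Slc2a1 log2 difference was 3.42 on day 11 and 1.23 on day 5. Slc2a1 was the only one of the 8 genes at least 2-fold apart between diabetic and control callus on both days with this background as well as with the blank-spot mean. With the local background 6.07% of all genes were past that size on day 11 and 3.66% on day 5.

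**Figure D5:**
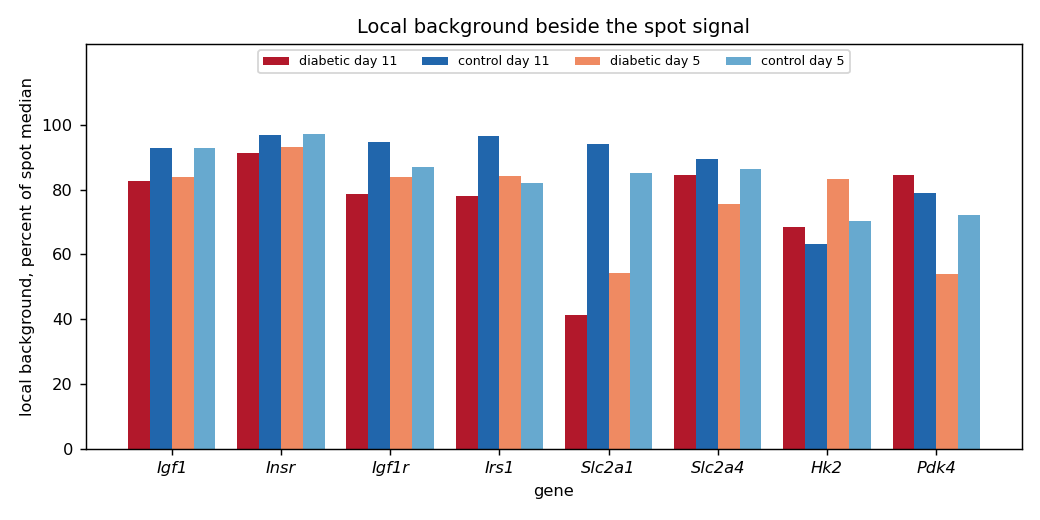
Local background as a percent of the spot median for each gene on each array. For Slc2a1 the bars of diabetic callus (41.2% and 54.2%) are below those of control callus (94.2% and 85.1%), while for Insr all 4 bars are between 91.2% and 97.1%.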

How the data were processed

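Callus RNA was measured on 4 single-colour Cy5 arrays, 1 per group, each of RNA from 5 pooled animals, per the labels' protocols. Per the file headers, every spot has a foreground median intensity (635 nm), a local background median and a flag for each of 3 scanner gains. The scanner and probe annotation were not given in the sources used here. The authors also deposited scaled intensity values. These are proportional to the spot median less the mean blank signal of the array, to within rounding of the last digit.

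Spot medians were corrected by normexp (limma 3.58.1, R 4.3.3; offset 50, blank-spot mean as background, 5% of blank spots trimmed at each end) and quantile normalized after control spots and 13 flagged genes were left out. A gene entered a comparison if it exceeded the blank mean plus 2 SD on at least 1 of its arrays. At least 2-fold apart is a description without a p-value.

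The 8 genes, the motifs and the processing were chosen with earlier results of these data known, and all 8 genes are named whatever their values. Gene lists of the wider pathway and of cell types could not be applied, as no ID was paired with a symbol. Having 4 arrays limits the precision. Alternatives were the background, offset, scaling, filter, size rule, variance moderation and the authors' table.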

Additional observations from a re-analysis of the deposited data

Results flagged for a closer look

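Igf1 is listed for a closer look because its level differed between day 11 and day 5 in opposite directions in the 2 conditions. On the intensity + 50 scale it was -0.95 in diabetic and 0.84 in control callus, which differ by -1.79. With 1 array per condition and day this rests on single arrays, and the limma test of the change, described above, did not pass. The direction was negative in diabetic and positive in control callus in the authors' deposited table (-1.05 and 0.66) and with the local background (-0.34 and 0.80). Opposite signs alone are not particular to Igf1. On the intensity + 50 scale Irs1 had 0.12 in diabetic and -0.13 in control callus, and Igf1r had -0.12 and 0.093. Slc2a4 had 0.11 and -0.029, and Insr had 0.0030 and -0.056. With the blank-spot mean subtracted and no offset, the Irs1 values were 0.99 and -2.03, its day 11 control spot being raised to the limit.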

How the results depend on the processing

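With 1 array of pooled RNA per group no array could be left out, and no paired analysis was possible. The number of the 8 genes at least 2-fold apart between diabetic and control callus on day 11 was 2 and became 1 with the local background in normexp. On day 5 it was 2 and became 1 with the local background and 4 in the authors' table (8.38% of all genes there). Between the days it was 1 in diabetic callus and became 2 with the blank-spot mean subtracted, 2 with median scaling, 2 at 1.5-fold and 5 in the authors' table (7.07% of all genes). In control callus it was 2 and became 0 with the local background, which also turned the Slc2a1 difference to -0.0049. The cause was not tested. The other settings gave counts within 1.5 times. Among the 8 genes the limma fits called 0 at each of 10 alternatives, 2 of which left out Irs1 and tested 7 genes. Over all 17661 genes, the averaged diabetes difference had 3 calls with trended and robust variance moderation, and 0 of them were among the 8. Of 32 single differences, 9 changed sign with the local background, 1 with median scaling and 0 with 75th percentile scaling or the offset of 16. None of the 30 differences listed by the authors changed sign. Sizes of Insr and Irs1 are limited by signal near background.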
